A study of Arabidopsis thaliana with 32 samples.

Results

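Transcripts of pathogenesis-related (PR) and defensin genes were followed in leaves of Arabidopsis thaliana across 4 genotypes. The set was chosen by gene name and holds 6 of the 33341 genes in the count table. PR1 (AT2G14610), BGL2, also called PR2 (AT3G57260), and PR5 (AT1G75040) are the usual markers of the salicylic acid response, 3 genes in all. PR3 (AT3G12500), PR4 (AT3G04720) and PDF1.2 (AT5G44420), the other 3, are the usual markers of the jasmonate and ethylene response. Counts were present for 5 of the 6 genes, and these 5 entered the tests, while PR3 had 0 counts in every library.

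The study asked how loss of the histone methyltransferases ATXR5 and ATXR6 and of the histone acetyltransferase GCN5 changes transcription, alone and combined. The groups were atxr5/6 mutants, gcn5 mutants, atxr5/6 gcn5 mutants and wild type, all of ecotype Col0, with 2 RNA-seq libraries each from leaves of 3-week-old plants grown in long days. The labels name neither the alleles nor the number of plants behind a library. They do not say that the libraries of a genotype came from separate plants or cultures, so p-values measure only the spread between these samples, which may be technical.

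PR proteins are secreted or vacuolar proteins, many of them antifungal, that accumulate in leaves after infection. In Arabidopsis, salicylic acid made through ICS1 and sensed by NPR1 drives PR1, BGL2 and PR5, mainly in defence against pathogens that feed on living tissue. Jasmonate and ethylene act through COI1, EIN2 and EIN3 and the factors ORA59 and ERF1 on PDF1.2 and basic chitinases, mainly against pathogens that kill the tissue, and the branches are known to restrain each other.

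Gene counts summed to between 24860332 and 43969417 per library. Plastid genes held 53.8% to 55.4% of them in atxr5/6, 45.9% to 46.5% in gcn5, 43.2% to 46.4% in atxr5/6 gcn5 and 55.3% to 57.4% in wild type. Annotated ribosomal DNA (rDNA) features held 0.878% and 2.37% in atxr5/6, 21.6% and 13.3% in gcn5, 19.5% and 15.0% in atxr5/6 gcn5, and 0.294% and 0.645% in wild type, so this share moved with the gcn5 label. The 5 leaf markers were present everywhere, with a summed level of 13831 and 13623 CPM (counts scaled to library size) in the atxr5/6 libraries, 8966 and 8063 CPM in those of gcn5, 7313 and 8309 CPM in those of atxr5/6 gcn5, and 12805 and 12552 CPM in wild type. The 5 root markers summed to at most 0.377 CPM in any library, and the 4 seed markers were at 0 in both libraries of gcn5, atxr5/6 gcn5 and wild type. Flower markers, a set of 5, were detected in every library. Their lowest sum, 2.07 CPM, was that of gcn5 replicate 1, and their highest, 6.89 CPM, that of gcn5 replicate 2. No flower marker was called in any of the mutants against wild type. The GCN5 transcript was not lower in the libraries labelled gcn5 (5.36 and 4.86 CPM) or atxr5/6 gcn5 (6.12 and 4.83 CPM) than in wild type (5.33 and 4.25 CPM). ATXR5 was lower in atxr5/6 (0.777 and 0.850 CPM) and in atxr5/6 gcn5 (0.229 and 0.171 CPM) than in wild type (3.26 and 3.21 CPM). ATXR6 was not called lower in either: it stood at 0.216 and 0.196 CPM in atxr5/6 and 0.589 and 0.377 CPM in atxr5/6 gcn5, against 0.457 and 0.464 CPM in wild type. Transcript levels therefore gave no check of the gcn5 label, and every direction below is that of libraries so labelled.

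All 5 tested PR and defensin genes were higher in the libraries labelled gcn5 than in wild type, and again in those labelled atxr5/6 gcn5, whereas none of them passed the test in atxr5/6. A gene was called at an adjusted p under 0.05 in the quasi-likelihood test of edgeR, adjusted by the Benjamini-Hochberg method over 19575 genes. In gcn5 against wild type, 5 of 5 were called higher, where 37.5% of all tested genes were called in either direction. The same held in atxr5/6 gcn5 against wild type, with 5 of 5 higher beside 39.1% of all genes called. In atxr5/6 gcn5 against atxr5/6 it was again 5 of 5 higher, beside 36.7% of all genes. The median log2 fold change over the 5 was 2.50, 2.65 and 3.41 in those comparisons, while the median over all tested genes was 0.01, 0.00 and 0.05.

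No tested PR or defensin gene was called in atxr5/6 against wild type, where 13.2% of all genes were called, a share that fell to 0.84% without atxr5/6 replicate 1 and 1.06% without replicate 2. There, 2 of the 5 had an unadjusted p under the threshold, BGL2 in the higher direction and PDF1.2 in the lower, and DESeq2 called both. Between atxr5/6 gcn5 and gcn5, where 0.092% of all genes were called, edgeR called 0 of 5, with 3 at an unadjusted p under the threshold and 0 called by DESeq2. The interaction, which is the difference between atxr5/6 gcn5 and atxr5/6 minus the difference between gcn5 and wild type, was called for 0 of 5 by edgeR, with 1 (PDF1.2) at an unadjusted p under the threshold and 0 called by DESeq2. For the interaction 0.47% of all tested genes were called. The comparisons share libraries, wild type serving all of the single contrasts against it, so their lists of calls are not independent of each other.

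**Figure D1:**
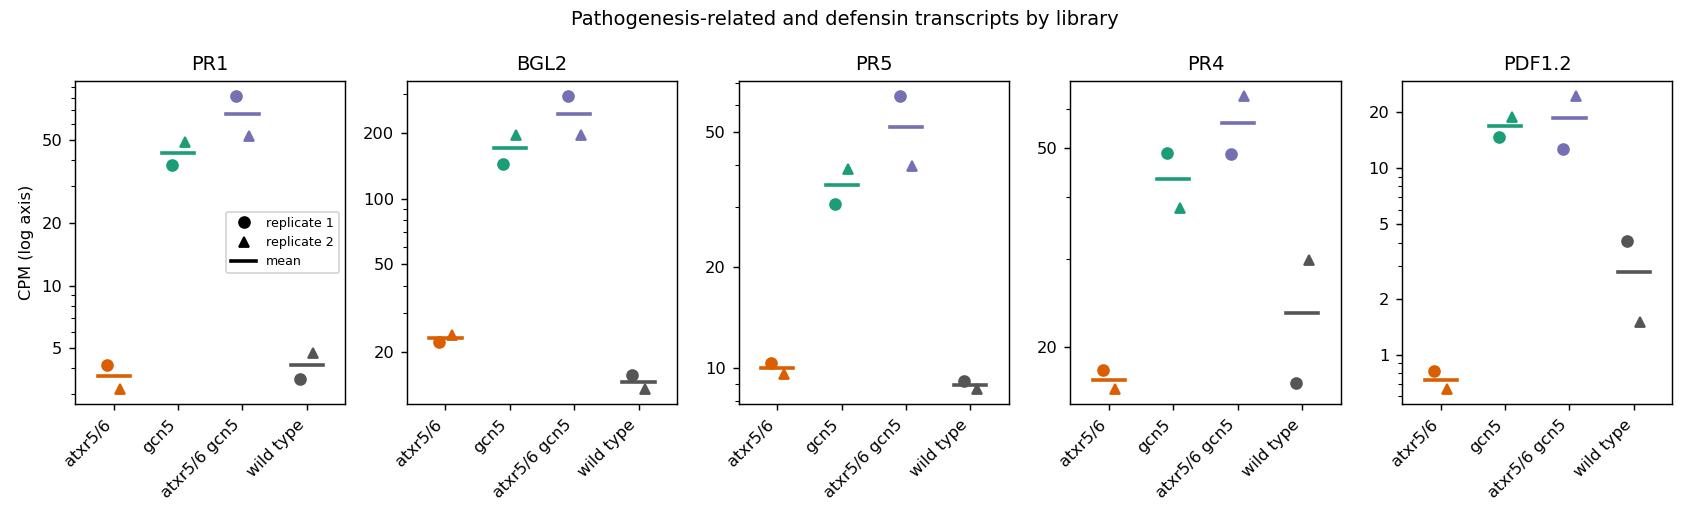
CPM of the 5 tested genes in each of the 8 libraries, on a log axis whose range differs between panels, with circles for replicate 1, triangles for replicate 2 and lines for the mean of 2. PR1 lay between 38.1 and 81.7 CPM in the libraries labelled gcn5 or atxr5/6 gcn5, above the 3.17 to 4.75 CPM of the atxr5/6 and wild-type libraries.

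PR1, a secreted protein and the standard readout of salicylic acid signalling, was measured at 4.17 and 3.17 CPM in the atxr5/6 libraries, 38.1 and 48.8 CPM in those of gcn5, 81.7 and 52.1 CPM in those of atxr5/6 gcn5, and 3.54 and 4.75 CPM in wild type. Both libraries labelled gcn5 and both labelled atxr5/6 gcn5 stood far above all 4 others, and atxr5/6 overlapped wild type. CPM values were scaled to the effective size of each library but not to transcript length, so levels can be set side by side between libraries for 1 gene and not between genes. PR1 was 10.6-fold higher in gcn5 than in the wild-type libraries (log2 fold change 3.41, SE 0.27, edgeR adjusted p = 0.000194). It was 16.3-fold higher in atxr5/6 gcn5 than in wild type (4.03, SE 0.27, edgeR adjusted p = 8.65e-05). In atxr5/6 it differed from wild type by -0.14 (SE 0.28, edgeR adjusted p = 0.788). In RNA from whole leaves, more expressing cells and more RNA per cell cannot be told apart.

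BGL2, a beta-1,3-glucanase that breaks down fungal wall glucan, had 22.2 and 23.9 CPM in the atxr5/6 libraries, 144 and 196 CPM in those of gcn5, 295 and 194 CPM in those of atxr5/6 gcn5, and 15.6 and 13.4 CPM in wild type. The groups kept the same order as for PR1 at the top, and here both atxr5/6 libraries also lay above both wild-type libraries. BGL2 was 11.7-fold higher in gcn5 (log2 fold change 3.54, SE 0.23, edgeR adjusted p = 0.000104) and 16.8-fold higher in the atxr5/6 gcn5 libraries than in wild type (4.07, SE 0.24, edgeR adjusted p = 5.48e-05). The smaller difference of atxr5/6 from wild type, 0.66 on the log2 scale (SE 0.22), had an edgeR adjusted p of 0.0845. That difference passed the threshold in a fit of only those genotypes (adjusted p = 0.0182), with library totals as sizes (0.0385), with no low-count filter (0.0133), in DESeq2 (0.0114), and without atxr5/6 gcn5 replicate 1 (0.0310) or replicate 2 (0.0312).

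PR5, a thaumatin-like protein, had 10.4 and 9.64 CPM in the atxr5/6 libraries, 30.7 and 38.9 CPM in those of gcn5, 64.1 and 39.6 CPM in those of atxr5/6 gcn5, and 9.18 and 8.65 CPM in wild type. Its libraries fell into the same high and low sets as those of PR1 and BGL2, over a narrower range. The difference was 3.90-fold in gcn5 against wild type (log2 fold change 1.96, SE 0.22, edgeR adjusted p = 0.000785) and 5.80-fold in the atxr5/6 gcn5 libraries against wild type (2.54, SE 0.23, edgeR adjusted p = 0.000263). In atxr5/6 it was 0.17 (SE 0.22, edgeR adjusted p = 0.679), although both atxr5/6 values lay just above both wild-type values.

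Against atxr5/6, the libraries labelled atxr5/6 gcn5 held 18.0-fold more PR1 (log2 fold change 4.17, SE 0.27, edgeR adjusted p = 6.87e-05). For BGL2 that contrast was 10.6-fold (3.41, SE 0.23, edgeR adjusted p = 7.38e-05), and for PR5 it was 5.17-fold (2.37, SE 0.22, edgeR adjusted p = 0.00031). Set against gcn5, PR1 was 0.62 higher on the log2 scale (SE 0.23), BGL2 0.53 (SE 0.21) and PR5 0.57 (SE 0.21), with edgeR adjusted p-values of 0.817, 0.831 and 0.804. The PR1 and PR5 values of both atxr5/6 gcn5 libraries lay above both gcn5 values, while those of BGL2 overlapped. Mean levels of all 3 thus ran in the order atxr5/6 gcn5, gcn5, then atxr5/6 and wild type, with neither the first pair nor the last pair separated by the test. The interaction was 0.76 for PR1 (SE 0.36), -0.14 for BGL2 (SE 0.30) and 0.41 for PR5 (SE 0.31), with edgeR adjusted p-values of 0.315, 0.847 and 0.530.

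**Figure D2:**
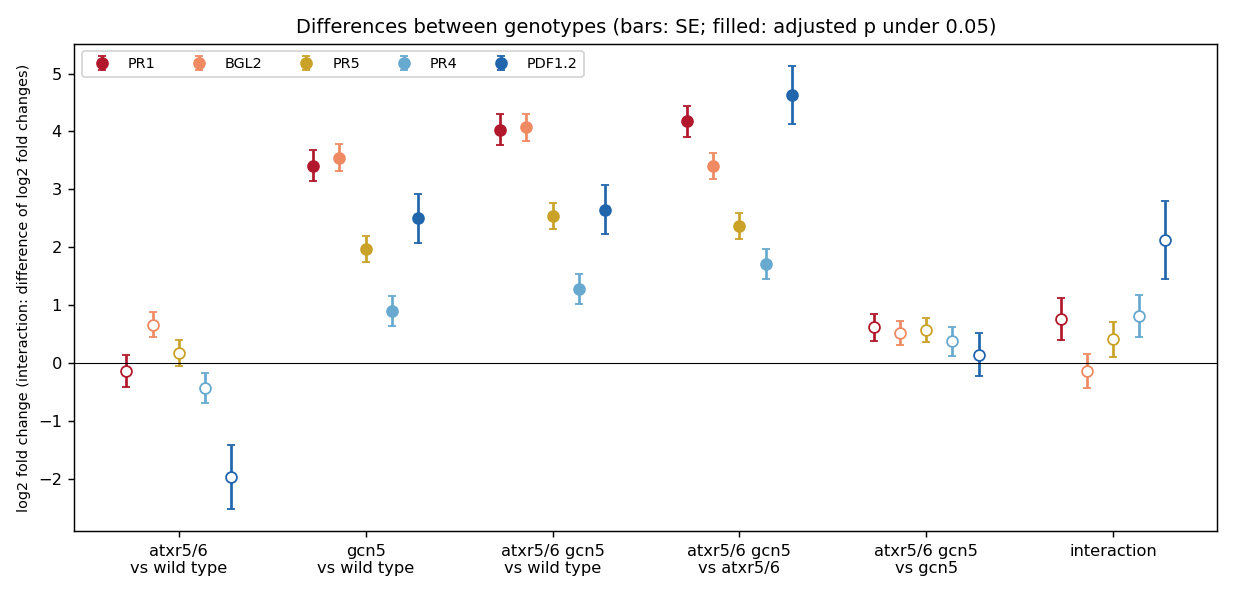
Log2 fold changes of the 5 genes in each comparison, and the interaction as a difference of log2 fold changes, with bars for the SE and filled points for an edgeR adjusted p under 0.05. All points are filled in the 3 comparisons that set gcn5 or atxr5/6 gcn5 against wild type or atxr5/6, from 0.90 for PR4 in gcn5 to 4.62 for PDF1.2 in atxr5/6 gcn5 against atxr5/6, and all are open in the others.

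PDF1.2 is an antifungal defensin and the standard readout of combined jasmonate and ethylene signalling. It had 38 and 20 counts in atxr5/6, 364 and 498 in gcn5, 389 and 714 in atxr5/6 gcn5, and 188 and 39 in wild type. These were the lowest counts of the 5 tested genes except in wild-type replicate 1, where PR1 had 163. Scaled to library size this was 0.821 and 0.654 CPM in the atxr5/6 libraries, 14.8 and 18.8 CPM in those of gcn5, 12.7 and 24.5 CPM in those of atxr5/6 gcn5, and 4.09 and 1.51 CPM in wild type. The 4 genotypes formed 3 levels without overlap, with gcn5 and atxr5/6 gcn5 together at the top, wild type between, and atxr5/6 lowest. PDF1.2 was 5.67-fold higher in gcn5 than in the wild-type libraries (log2 fold change 2.50, SE 0.42, edgeR adjusted p = 0.00369) and 6.28-fold higher in the atxr5/6 gcn5 libraries than in wild type (2.65, SE 0.42, edgeR adjusted p = 0.00265).

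The widest difference of any of the 5 genes was that of PDF1.2 between atxr5/6 gcn5 and atxr5/6, 24.7-fold (log2 fold change 4.62, SE 0.50, edgeR adjusted p = 0.000569). Between atxr5/6 gcn5 and gcn5 it was 0.15 (SE 0.38, edgeR adjusted p = 1). In atxr5/6 against wild type the difference was -1.97 (SE 0.55), just outside the threshold at an edgeR adjusted p of 0.0518, and the interaction was 2.12 (SE 0.67, edgeR adjusted p = 0.171). The atxr5/6 difference passed with library totals as sizes (adjusted p = 4.08e-07), with no low-count filter (0.00189), in DESeq2 (0.0319), without atxr5/6 gcn5 replicate 1 (0.0278) or 2 (0.0281), and without wild-type replicate 2 (0.0245). The interaction passed with library totals (adjusted p = 2.54e-05) and with no low-count filter (0.0171).

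PR4, a hevein-like protein that binds chitin, had 18.0 and 16.4 CPM in the atxr5/6 libraries, 48.9 and 37.9 CPM in those of gcn5, 48.6 and 63.7 CPM in those of atxr5/6 gcn5, and 16.9 and 29.9 CPM in wild type. Its libraries divided as for the other genes, but the distance was the smallest of the 5, and 1 wild-type library lay well above the other. PR4 was 1.87-fold higher in gcn5 than in the wild-type libraries (log2 fold change 0.90, SE 0.26, edgeR adjusted p = 0.0277). It was 2.41-fold higher in atxr5/6 gcn5 than in wild type (1.27, SE 0.26, edgeR adjusted p = 0.0069) and 3.26-fold higher than in atxr5/6 (1.71, SE 0.26, edgeR adjusted p = 0.00223). The remaining differences of PR4 were -0.43 in atxr5/6 against wild type (SE 0.26, edgeR adjusted p = 0.315), 0.37 in atxr5/6 gcn5 against gcn5 (SE 0.25, edgeR adjusted p = 0.931) and 0.81 for the interaction (SE 0.36, edgeR adjusted p = 0.293).

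The PR4 call in gcn5 rested on all libraries of several genotypes. It was lost without gcn5 replicate 1 (0.65, edgeR adjusted p = 0.173), gcn5 replicate 2 (1.07, 0.0529), wild-type replicate 1 (0.54, 0.0849), atxr5/6 replicate 1 (0.90, 0.0528) or atxr5/6 replicate 2 (0.90, 0.0524), and in a fit of only those genotypes (0.90, 0.0574). Without wild-type replicate 1, PR4 was instead called lower in atxr5/6 than in wild type (-0.79, edgeR adjusted p = 0.0404), and its interaction passed (1.17, edgeR adjusted p = 0.0486).

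The rDNA share of the libraries moved with the 5 calls in gcn5 and in atxr5/6 gcn5. With that share as a covariate, 0 of 5 genes passed in gcn5 against wild type. The log2 fold changes there were 3.47 for PR1 (SE 0.66, edgeR adjusted p = 0.0872), 3.72 for BGL2 (SE 0.58, 0.0627), 1.93 for PR5 (SE 0.60, 0.181), 0.64 for PR4 (SE 0.74, 0.672) and 3.94 for PDF1.2 (SE 0.95, 0.127). Again 0 of 5 passed in atxr5/6 gcn5 against atxr5/6, at 4.23 for PR1, 3.58 for BGL2, 2.34 for PR5, 1.48 for PR4 and 5.92 for PDF1.2. BGL2 alone passed in atxr5/6 gcn5 against wild type (4.25, edgeR adjusted p = 0.0471), where PR1 stood at 4.09, PR5 at 2.50, PR4 at 1.03 and PDF1.2 at 4.03. Over the whole table that fit called 65 genes in gcn5 against wild type, where the fit without the share called 7343. Beyond this fit, the part of the rDNA share in the calls was not tested. Within gcn5 the library with the larger share, 21.6%, had the lower PR1, BGL2, PR5 and PDF1.2 values and the higher PR4 value. Within atxr5/6 gcn5 the library with the larger share, 19.5%, had the higher PR1, BGL2 and PR5 values and the lower PR4 and PDF1.2 values.

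PR3, a basic endochitinase that cleaves the chitin of fungal walls, was listed at 0 in all 8 libraries, so it gave no level and no test. A count of 0 allows up to 3 counts, or 0.0648 and 0.0981 CPM in the atxr5/6 libraries, 0.122 and 0.113 CPM in those of gcn5, 0.0981 and 0.103 CPM in those of atxr5/6 gcn5, and 0.0652 and 0.116 CPM in wild type, for reads that the counting step assigned. In the RefSeq annotation of assembly TAIR10.1, where the gene is named HCHIB, 85.4% of its span is shared with the long non-coding RNA gene AT3G12502, which was also at 0. None of the other 5 genes shares any of its span with another annotated gene.

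Among 541 protein-coding genes whose whole span is shared with other genes, 540 had no count in any library (99.8%). The share was 49.7% for the 346 genes overlapped over at least 75% but not all of their span, 15.0% for the 320 genes overlapped over less than 75% but more than 50%, 2.23% for the 6443 genes overlapped over less, and 11.3% for the 19782 genes with no overlap. PR3 therefore lies in a class in which an empty row was common, as does MYC2, a master regulator of jasmonate responses, which was also at 0 and shares 98.5% of its span with AT1G32630. Whether the overlap set the PR3 row to 0 was not tested, and an empty row here is no measure of PR3 expression.

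**Figure D3:**
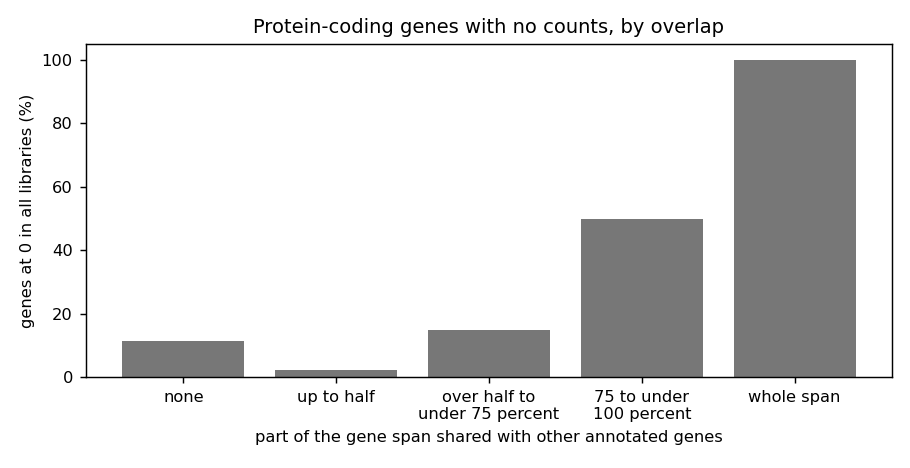
Share of protein-coding genes with 0 counts in all 8 libraries, in percent, by how much of the gene span other annotated genes share in TAIR10.1. The share was 11.3% with no overlap, 49.7% in the class that holds PR3, and 99.8% for wholly overlapped genes.

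PDF1.2 has close copies, and the way reads shared by copies were counted is not given in the sources used here, so the split between copies is uncertain. PDF1.2c (AT5G44430), its neighbour on the chromosome, had 0.281 and 0.131 CPM in the atxr5/6 libraries, 5.07 and 9.49 CPM in those of gcn5, 4.28 and 13.7 CPM in those of atxr5/6 gcn5, and 1.85 and 1.00 CPM in wild type. PDF1.2b (AT2G26020) had 0.993 and 0.948 CPM in the atxr5/6 libraries, 2.72 and 2.79 CPM in those of gcn5, 1.86 and 2.95 CPM in those of atxr5/6 gcn5, and 1.44 and 0.695 CPM in wild type. PDF1.3 (AT2G26010), which neighbours PDF1.2b, did not exceed 0.753 CPM in any library. It had 0.194 and 0.163 CPM in the atxr5/6 libraries, 0.650 and 0.753 CPM in those of gcn5, 0.164 and 0.377 CPM in those of atxr5/6 gcn5, and 0.522 and 0.232 CPM in wild type. PDF1.3 was not called against wild type in gcn5 (0.80, edgeR adjusted p = 0.197) or in atxr5/6 gcn5 (-0.58, edgeR adjusted p = 0.397), where its values overlapped wild type. PDF1.2c and PDF1.2b thus repeated the high gcn5 and atxr5/6 gcn5 values, with PDF1.2b over the smaller range.

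Summed over the 4 copies, which removes the split among them, the level was 2.29 and 1.90 CPM in the atxr5/6 libraries, 23.2 and 31.8 CPM in those of gcn5, 19.0 and 41.5 CPM in those of atxr5/6 gcn5, and 7.89 and 3.44 CPM in wild type. The 3 levels seen for PDF1.2 alone were also those of the sum, without overlap. PDF1.2 supplied 35.8% and 34.5% of that sum in atxr5/6, 63.6% and 59.0% in gcn5, 66.8% and 59.0% in atxr5/6 gcn5, and 51.8% and 43.8% in wild type. PDF1.2c was called higher in gcn5 than in the wild-type libraries (log2 fold change 2.29, SE 0.59, edgeR adjusted p = 0.0185) and in atxr5/6 gcn5 than in wild type (2.59, SE 0.58, edgeR adjusted p = 0.0104). The gcn5 call was lost without gcn5 replicate 2 (edgeR adjusted p = 0.115) or wild-type replicate 2 (0.0767). PDF1.2b was called higher in the same comparisons, 2.46-fold (SE 0.33 on the log2 scale, edgeR adjusted p = 0.0189) and 2.14-fold (SE 0.33, edgeR adjusted p = 0.0323). Its gcn5 call was lost without gcn5 replicate 1 (0.0731), gcn5 replicate 2 (0.0808) or wild-type replicate 2 (0.0598). Its atxr5/6 gcn5 call was lost without atxr5/6 replicate 1 (0.0586) or 2 (0.0583), gcn5 replicate 1 (0.0571) or 2 (0.0513), atxr5/6 gcn5 replicate 2 (0.179) or wild-type replicate 2 (0.110).

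**Figure D4:**
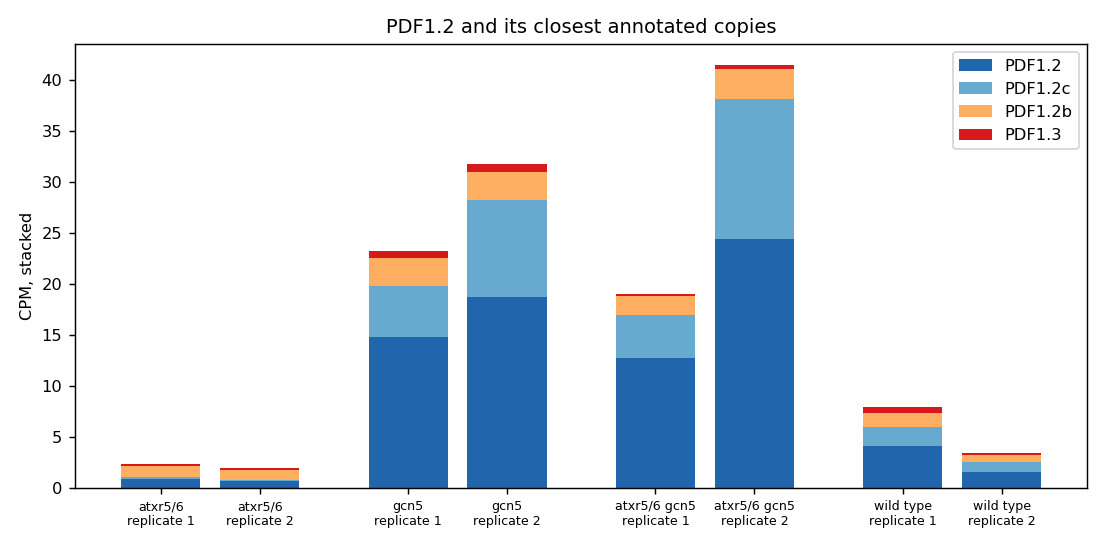
CPM of PDF1.2 and its copies PDF1.2c, PDF1.2b and PDF1.3, stacked for each of the 8 libraries. The stacks reach 19.0 to 41.5 CPM in gcn5 and atxr5/6 gcn5, 1.90 and 2.29 CPM in atxr5/6, and 3.44 and 7.89 CPM in wild type.

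A list of 26 relatives of the same protein families, the PDF1.2 copies included, divided between higher, lower and uncalled genes. Of these 26, 14 passed the filter on low counts, and 6 of the 14 were called higher and 0 lower in gcn5 against wild type, beside 37.5% of all tested genes called in either direction. DESeq2 gave 6 and 0, and 0 were lower at an unadjusted p under the threshold. In atxr5/6 gcn5 it was 5 higher and 2 lower against wild type, and 7 higher and 2 lower against atxr5/6, beside 39.1% and 36.7% of all genes. In atxr5/6 against wild type, beside 13.2% of all genes, 0 were higher and 2 lower by edgeR, and DESeq2 and unadjusted p-values also gave 0 higher. The median log2 fold change of the 14 was -0.70, 0.49 and -0.08 in atxr5/6, gcn5 and atxr5/6 gcn5 against wild type, beside -0.01, 0.01 and 0.00 over all tested genes. The 6 calls in gcn5 became 3 without gcn5 replicate 1, gcn5 replicate 2 or wild-type replicate 1, and 2 without wild-type replicate 2. In atxr5/6 gcn5 against wild type the 5 higher became 3 without atxr5/6 replicate 1 or 2 or wild-type replicate 2. Against atxr5/6 the 7 higher became 4 without either atxr5/6 library, and the 2 lower in atxr5/6 against wild type then became 0. The 2 lower in atxr5/6 gcn5 against wild type became 1 without atxr5/6 replicate 1 or 2, atxr5/6 gcn5 replicate 1, or wild-type replicate 1 or 2. Against atxr5/6 the 2 lower became 1 without atxr5/6 replicate 1, gcn5 replicate 2 or atxr5/6 gcn5 replicate 1, and 0 without atxr5/6 replicate 2.

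CHI (AT2G43570), a chitinase, differed most from wild type among the tested relatives in gcn5 and in atxr5/6 gcn5, with 2.29 and 2.97 CPM in the atxr5/6 libraries, 41.3 and 58.7 CPM in those of gcn5, 60.5 and 49.9 CPM in those of atxr5/6 gcn5, and 3.26 and 2.86 CPM in wild type. Its log2 fold change was 4.02 in gcn5 against wild type (SE 0.22, edgeR adjusted p = 4.6e-05) and 4.16 in the atxr5/6 gcn5 libraries against wild type (SE 0.22, edgeR adjusted p = 3.3e-05). AT4G16260, a beta-1,3-glucanase like BGL2, was called higher by 1.21 (edgeR adjusted p = 0.0167) and 1.85 (edgeR adjusted p = 0.00264) in those comparisons, the first lost without gcn5 replicate 1 (0.122) or wild-type replicate 1 (0.0712). BG3, another glucanase of the BGL2 cluster, was not called in either, at 0.32 and 0.08, and was lower in atxr5/6 than in wild type by -1.73 (edgeR adjusted p = 0.00507), a call lost without atxr5/6 replicate 1 (0.0656) or 2 (0.0672). PRB1, the neighbour and closest relative of PR1, had 3 and 4 counts in atxr5/6, 0 in every gcn5 and atxr5/6 gcn5 library, and 4 and 3 counts in wild type, too few to test. AT2G43590, also among the relatives, went the other way from CHI. It had 0.687 and 0.240 CPM in atxr5/6 gcn5 against 1.80 and 1.27 CPM in wild type (-1.74, SE 0.42, edgeR adjusted p = 0.0134). It was also called lower there than in atxr5/6 (-1.93, edgeR adjusted p = 0.00877). In gcn5 against wild type it was not called (-0.77, edgeR adjusted p = 0.151).

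Neighbours of PR5 on the chromosome did not share its values. TLP-3, a thaumatin-like gene beside PR5, had 0.691 and 0.686 CPM in the atxr5/6 libraries, 0.325 and 1.02 CPM in those of gcn5, 0.0327 and 0.480 CPM in those of atxr5/6 gcn5, and 1.02 and 1.35 CPM in wild type. Its level was lower in atxr5/6 gcn5 relative to wild type (log2 fold change -2.19, SE 0.74, edgeR adjusted p = 0.0458), a call lost without atxr5/6 replicate 1 (0.0830) or 2 (0.0829), atxr5/6 gcn5 replicate 1 (0.145), or wild-type replicate 1 (0.0750) or 2 (0.107), and reversed to 1.85 with the rDNA share as a covariate. AT1G75050, on the other side of PR5, did not exceed 0.264 CPM in any library and was not tested.

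Genes of salicylic acid synthesis and signalling were taken as a list of 25, of which 24 were tested. Compared with wild type, 11 of the 24 were higher and 0 lower in gcn5, and 13 were higher and 0 lower in atxr5/6 gcn5, beside 37.5% and 39.1% of all tested genes called in either direction. Each of these comparisons had 0 lower in DESeq2 too and 1 lower at an unadjusted p under the threshold. In atxr5/6 gcn5 against atxr5/6 19 were higher and 1 lower, beside 36.7% of all genes called. In atxr5/6 against wild type 0 were higher and 7 lower, beside 13.2% of all genes called, with 1 higher in DESeq2 and 2 higher at an unadjusted p under the threshold. The median log2 fold change of the list against wild type was -0.36 for atxr5/6, 0.40 for gcn5 and 0.64 for atxr5/6 gcn5. Without atxr5/6 replicate 1 or 2 the 7 lower calls became 1, and without atxr5/6 gcn5 replicate 1 the 13 higher calls became 7. With the rDNA share as a covariate, 2 were higher in each of the 3 comparisons that involve gcn5.

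ICS1, the enzyme at the entry to salicylic acid synthesis, had 11.8 and 10.8 CPM in the atxr5/6 libraries, 28.3 and 26.2 CPM in those of gcn5, 45.8 and 29.6 CPM in those of atxr5/6 gcn5, and 6.94 and 7.26 CPM in wild type. Its log2 fold change was 1.94 in gcn5 (SE 0.19, edgeR adjusted p = 0.000473) and 2.41 in the atxr5/6 gcn5 libraries against wild type (SE 0.19, edgeR adjusted p = 0.000169). ALD1, which makes the precursor of the systemic immunity signal pipecolic acid, was higher by 3.86 (SE 0.30, edgeR adjusted p = 0.000184) and 3.94 (SE 0.30, edgeR adjusted p = 0.000134). The defence factor WRKY54 was higher by 2.13 (SE 0.14, edgeR adjusted p = 0.000104) and 1.86 (SE 0.14, edgeR adjusted p = 0.000112) in the same comparisons. These 6 calls were kept without any 1 library.

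Some salicylic acid genes were called lower in atxr5/6 than in wild type, while ICS1 (0.67, edgeR adjusted p = 0.0570), EPS1 (0.70, edgeR adjusted p = 0.0673) and ALD1 (-0.19, edgeR adjusted p = 0.844) were not called. WRKY54 had 2.89 and 3.07 CPM in atxr5/6 against 8.57 and 8.31 CPM in wild type (log2 fold change -1.50, SE 0.15, edgeR adjusted p = 0.00163). NIMIN2, which binds the receptor NPR1, was lower by -2.27 (SE 0.30, edgeR adjusted p = 0.00455), and NPR1 itself by -0.82 (SE 0.14, edgeR adjusted p = 0.0114). The NIMIN2 and NPR1 calls were lost without atxr5/6 replicate 1 (0.0597 for NIMIN2 and 0.109 for NPR1) or replicate 2 (0.0603 for NIMIN2 and 0.118 for NPR1), the WRKY54 call in neither case. PR1, BGL2 and PR5 stood at -0.14, 0.66 and 0.17 in that comparison. Against atxr5/6, atxr5/6 gcn5 had higher WRKY54 (3.37), ALD1 (4.13) and NIMIN2 (2.98), with edgeR adjusted p-values of 1.95e-05, 0.000104 and 0.000369, and lower EPS1, an enzyme of the last step of salicylic acid synthesis (-0.67, edgeR adjusted p = 0.0411). The EPS1 call was lost without atxr5/6 replicate 1 (0.216) or 2 (0.101), or atxr5/6 gcn5 replicate 1 (0.191).

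**Figure D5:**
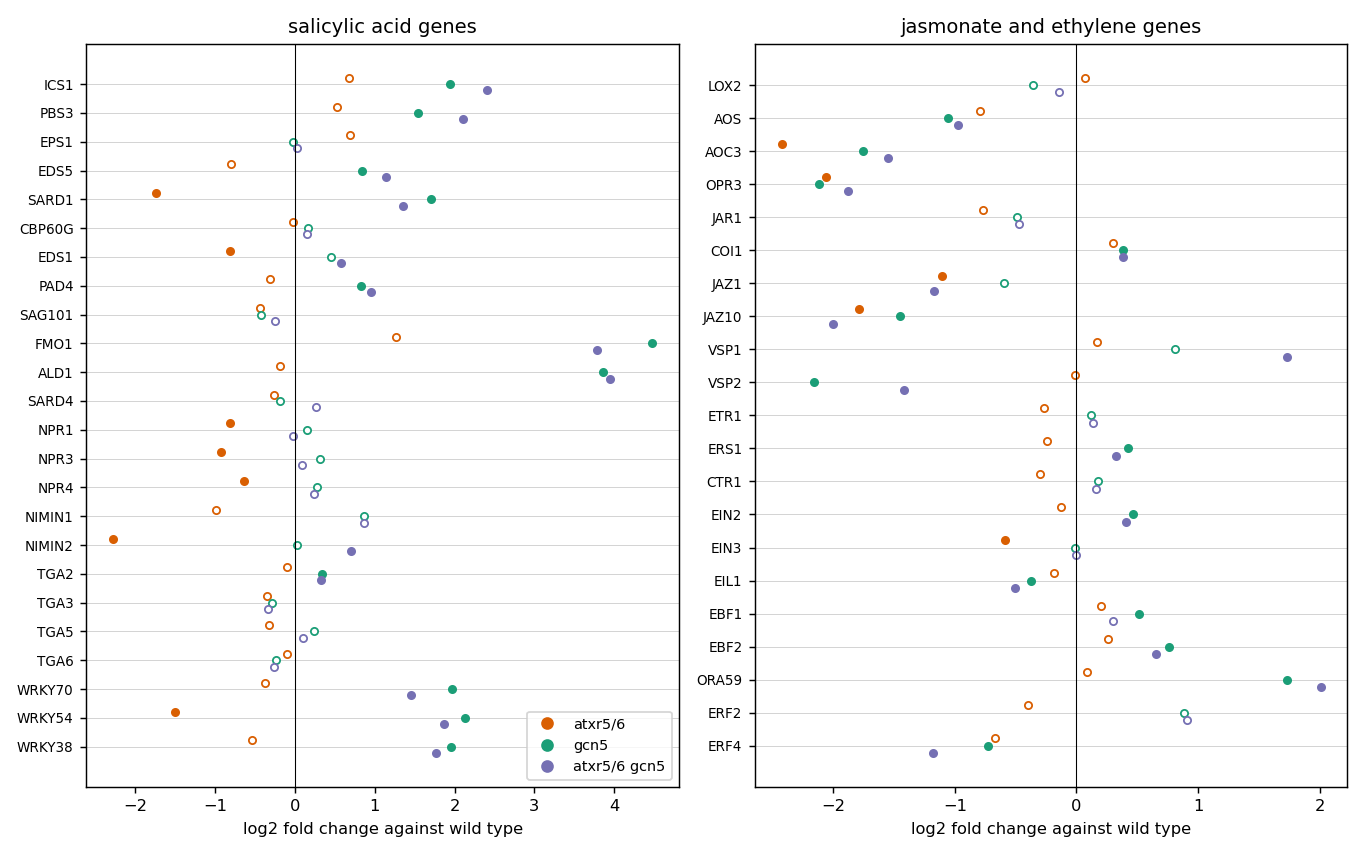
Log2 fold changes against wild type of the 24 tested salicylic acid genes (left) and the 21 tested jasmonate and ethylene genes (right) in atxr5/6, gcn5 and atxr5/6 gcn5, filled where the edgeR adjusted p was under 0.05. On the left 11 gcn5 and 13 atxr5/6 gcn5 points are filled, all above 0, and 7 atxr5/6 points are filled, all below 0, while on the right filled points of gcn5 and atxr5/6 gcn5 lie on both sides.

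Jasmonate and ethylene genes, a list of 23 with 21 tested, moved both ways. Compared with wild type, 6 were higher and 7 lower in gcn5, and 6 were higher and 8 lower in atxr5/6 gcn5, beside 37.5% and 39.1% of all tested genes called in either direction. Relative to atxr5/6, atxr5/6 gcn5 had 7 higher and 2 lower, beside 36.7% of all genes called, and without atxr5/6 replicate 1 or 2 this became 3 higher and 0 lower. The 2 lower also became 1 without gcn5 replicate 2 or atxr5/6 gcn5 replicate 1, and 0 without atxr5/6 gcn5 replicate 2. In atxr5/6 against wild type 0 were higher and 5 lower, beside 13.2% of all genes called, with 0 higher in DESeq2 and 1 higher at an unadjusted p under the threshold. List medians were -0.27, -0.01 and 0.00 in atxr5/6, gcn5 and atxr5/6 gcn5 against wild type. ORA59, the factor that switches on PDF1.2, had 1.08 and 0.686 CPM in the atxr5/6 libraries, 2.80 and 2.90 CPM in those of gcn5, 1.67 and 5.24 CPM in those of atxr5/6 gcn5, and 0.718 and 1.04 CPM in wild type. ORA59 was not picked by the naming rule and was chosen after its values were seen, as the known regulator of a gene in the set. It was called higher in gcn5 (log2 fold change 1.74, SE 0.53, edgeR adjusted p = 0.0345) and in atxr5/6 gcn5 than in wild type (2.01, SE 0.52, edgeR adjusted p = 0.0174). The gcn5 call of ORA59 was lost without any 1 of the gcn5 (0.108 and 0.118), atxr5/6 (0.0539 and 0.0536) or wild-type libraries (0.161 and 0.0669). Its atxr5/6 gcn5 call was lost without atxr5/6 gcn5 replicate 2 (0.97, 0.0785) or wild-type replicate 1 (1.72, 0.0980).

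Other jasmonate and ethylene genes that passed lay on both sides of wild type. EIN2, the central ethylene signal carrier, was higher by 0.46 in gcn5 (SE 0.09, edgeR adjusted p = 0.00553) and by 0.40 in atxr5/6 gcn5 (SE 0.09, edgeR adjusted p = 0.00884). COI1, the jasmonate receptor, was higher by 0.38 in each (edgeR adjusted p = 0.0114 and 0.0107). EIN3 stayed near wild type in the groups with the gcn5 label: its log2 fold change from wild type was -0.01 (gcn5) and -0.002 (atxr5/6 gcn5), with no call. Less EIN3 was measured for atxr5/6 than for wild type (-0.59, edgeR adjusted p = 0.0114). Against atxr5/6, EIN3 was called higher in atxr5/6 gcn5 (0.59, SE 0.10, edgeR adjusted p = 0.00412). ERF1 was too scarce to test, its counts being 8 and 2 (atxr5/6), 4 and 7 (gcn5), 3 and 4 (atxr5/6 gcn5), 6 and 11 (wild type). With library totals as sizes, EIN2 (0.264 and 0.231) and COI1 (0.402 and 0.242) did not pass, and COI1 did not pass in gcn5 without gcn5 replicate 1 (0.0717) or 2 (0.0682). VSP2, a storage protein induced by jasmonate, was lower by -2.16 in gcn5 (SE 0.46, edgeR adjusted p = 0.00872). VSP1, named in the same list, moved the other way. Its rise over wild type was 0.81 with gcn5 (SE 0.56), which earned no call (edgeR adjusted p = 0.282). With atxr5/6 gcn5 the VSP1 rise was 1.73 (SE 0.57) and passed (edgeR adjusted p = 0.0417). OPR3, an enzyme of jasmonate synthesis, was lower by -2.12 in gcn5 (SE 0.46, edgeR adjusted p = 0.00975), a call lost without gcn5 replicate 1 (0.0616) or 2 (0.0530).

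The wild-type libraries differed for both lists: 18 of the 21 tested jasmonate and ethylene genes and 19 of the 24 tested salicylic acid genes were higher in replicate 2 than in replicate 1, beside 9720 of all 19575 tested genes. OPR3 had 22.6 and 25.2 CPM in the atxr5/6 libraries, 20.6 and 25.1 CPM in those of gcn5, 26.0 and 28.0 CPM in those of atxr5/6 gcn5, and 45.6 and 154 CPM in wild type. Its level was thus called lower than wild type also in atxr5/6 (-2.06, edgeR adjusted p = 0.0247) and atxr5/6 gcn5 (-1.88, edgeR adjusted p = 0.0140). Between atxr5/6 gcn5 and atxr5/6 OPR3 was not called (0.18, edgeR adjusted p = 0.775). Without wild-type replicate 2, the lower jasmonate and ethylene calls against wild type became 3 for atxr5/6, 3 for gcn5 and 6 for atxr5/6 gcn5. Without wild-type replicate 1 they became 10, 10 and 8. Without gcn5 replicate 1 the calls in gcn5 were 1 higher and 1 lower, and without gcn5 replicate 2 they were 2 higher and 1 lower. Without atxr5/6 replicate 1 or 2 the lower calls became 0 for atxr5/6, 3 for gcn5 and 5 for atxr5/6 gcn5. Without atxr5/6 gcn5 replicate 1 or 2 the lower calls in atxr5/6 gcn5 became 4 and 2. PR4 was 1.77-fold higher in wild-type replicate 2 than in replicate 1, and PDF1.2 was 2.71-fold higher in replicate 1.

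The tested PR and defensin genes also differed within the atxr5/6 gcn5 pair of libraries. PR1, BGL2 and PR5 were 1.57, 1.52 and 1.62-fold higher in replicate 1 than in replicate 2, and 17 of the 24 tested salicylic acid genes were also higher in replicate 1, beside 47.0% of all tested genes. PR4 and PDF1.2 were 1.31 and 1.92-fold higher in replicate 2, while the jasmonate and ethylene list was evenly divided, with 11 of 21 higher in replicate 1 and 10 in replicate 2. In gcn5, PR1, BGL2, PR5 and PDF1.2 were all higher in replicate 2, by 1.28, 1.37, 1.27 and 1.27-fold, and PR4 was 1.29-fold higher in replicate 1. With 2 libraries per genotype these splits are a description of single libraries.

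The genes whose profile over the 8 libraries was nearest to each of the 5 were found by the root mean square (RMS) difference of log2 CPM, each gene centred on its own mean. For PR1, whose own RMS about its mean was 1.91, these were AT3G13610 at an RMS difference of 0.331, ALD1 at 0.345 and CHI at 0.369. BGL2 (own RMS 1.76) lay nearest to AT5G09290 at 0.253, PNP-A at 0.261 and MSRB8 at 0.301. For PR5 (own RMS 1.105) the nearest were RLP41 at 0.175, BON3 at 0.183 and UKL5 at 0.207. ALD1 and CHI were also named from the lists, but both selections used the same 8 libraries, so this is no separate support.

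PR4 (own RMS 0.73) had AT1G78190 at 0.153, RLP20 at 0.186 and the thioredoxin TRX5 at 0.199 as its nearest profiles. PDF1.2 (own RMS 1.94) had its copy PDF1.2c at 0.410 first, then AT2G44240 at 0.472 and AT5G53700 at 0.561. None of the 5 had another of the 5 among its 3 nearest. These distances describe 8 libraries of 4 genotypes, share library and depth, and rank many genes with alike profiles.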

How the data were processed

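RNA was sequenced from 8 of the 32 samples in the labels, as stranded total RNA libraries after removal of ribosomal RNA, per the labels' protocols. The values used are raw read counts per gene, deposited by the authors as 1 table with a column per library. STAR 2.7.2a, featureCounts 1.6.4, DESeq2 1.26 and the genome build TAIR10 are named in the submitters' processing notes, which give no role for each. How strand and reads with several map positions were treated is not given in the sources used here. The 24 chromatin samples and a table of transposable elements were not used here.

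The deposited counts were compared between genotypes with the quasi-likelihood functions glmQLFit and glmQLFTest of edgeR 4.0.16, run in R 4.3.3. A single fit took all 8 libraries, with genotype as its term, 4 residual degrees of freedom and TMM sizes. The function filterByExpr (minimum count 10) left 19575 genes, and the common biological coefficient of variation was 0.123. P-values were adjusted by Benjamini-Hochberg over all genes tested, with calls under 0.05. SE values were obtained by dividing the absolute log2 fold change by the root of F. CPM values used effective library sizes, and profile distances used log2 CPM with a prior count of 2. The procedure was tested on simulated data.

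Groups came from the sample titles. The 2 libraries of a genotype differed beyond sampling noise in raw counts, rDNA features included (chi-square over degrees of freedom from 22.6 to 89.6). This cannot tell separate plants from separate preparations. Each library counted as 1 sample. Genes to name were picked as all 6 of the set, up to 3 higher and 3 lower calls with the smallest p from each list and comparison, the closest copies, the 3 nearest profiles and the targeted genes. Not every gene so picked is described here, and some, such as ORA59, ERF1 and VSP1, were named outside this rule. The genes, lists and tests were chosen with earlier results of these data known. Of 33341 gene IDs, 33056 (99.1%) matched RefSeq genes of assembly TAIR10.1, used for names, neighbours and overlap only, and no coordinates are given because the builds differ.

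Alternatives were RLE sizes, library totals, DESeq2 1.42.0, all genes with counts, a filter at a mean count of 20, only the genotypes compared, a replicate block, removal of organelle genes with or without rDNA features, the rDNA share as a covariate, and leaving out each library.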

Additional observations from a re-analysis of the deposited data

Results flagged for a closer look

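A difference between genotypes in the effect that goes with the gcn5 label was called for 2 named genes outside the set, both of the salicylic acid list. For NIMIN2 the difference between atxr5/6 gcn5 and atxr5/6 exceeded that between gcn5 and wild type by 2.95 on the log2 scale (SE 0.39, edgeR adjusted p = 0.0333), from differences of 2.98 and 0.03. The NIMIN2 levels were 0.518 and 0.392 CPM in the atxr5/6 libraries, 2.56 and 2.07 CPM in those of gcn5, 4.28 and 3.08 CPM in those of atxr5/6 gcn5, and 1.94 and 2.67 CPM in wild type. Only atxr5/6 lay apart below the rest. The call was lost without atxr5/6 replicate 1 (0.229) or 2 (0.233), gcn5 replicate 1 (0.0723) or 2 (0.136), or atxr5/6 gcn5 replicate 1 (0.0536).

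For WRKY54 the same difference was 1.23 (SE 0.20, edgeR adjusted p = 0.0493), from 3.37 in atxr5/6 gcn5 against atxr5/6 and 2.13 in gcn5 against wild type. The WRKY54 call was lost without atxr5/6 replicate 1 (0.319) or 2 (0.250), gcn5 replicate 1 (0.0851), atxr5/6 gcn5 replicate 1 (0.0705) or wild-type replicate 2 (0.0698). None of the 5 tested PR and defensin genes passed this test in edgeR, where 1 had an unadjusted p under 0.05, or in DESeq2.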

How the results depend on the processing

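Over the 5 tested PR and defensin genes and 6 comparisons, 499 of the values under alternatives kept their side of the threshold, 16 newly passed it and 20 lost it. None changed direction among calls, while changes of direction among values called in neither fit were not counted. The calls in atxr5/6 against wild type, 0 in the report, became 2 with library totals, 2 with no low-count filter, 2 in DESeq2 and 1 with only the genotypes compared, and ranged from 0 to 2 without single libraries. The calls for the interaction, also 0, became 1 with library totals and 1 with no low-count filter, and ranged from 0 to 1 without single libraries. With the rDNA share as a covariate, the 5 calls became 0 in gcn5 against wild type, 1 in atxr5/6 gcn5 against wild type and 0 in atxr5/6 gcn5 against atxr5/6. That fit has 1 residual degree of freedom fewer, the share moves with the gcn5 label, and the SE of PR1 in gcn5 against wild type grew to 0.66, against 0.27. Without single libraries, gcn5 against wild type ranged from 4 to 5 calls, and with only the genotypes compared it had 4. Between atxr5/6 gcn5 and gcn5 the count was 0 under every alternative run.

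For the genes followed under alternatives, values called in either fit reversed direction only with the rDNA covariate, and only outside the set. VSP2 became 0.85 in gcn5 against wild type, 1.75 in atxr5/6 gcn5 against wild type and 1.54 against atxr5/6. TLP-3 became 1.85 and NIMIN2 -0.20 in atxr5/6 gcn5 against wild type, and EPS1 became 0.36 in atxr5/6 gcn5 against atxr5/6. The cause was not tested. With library totals, 1344 genes were called higher and 3492 lower in gcn5 against wild type, beside 3537 and 3806 in the report's fit. Genes called over the whole table changed with the settings for the interaction, where 92 became 707 with library totals, 989 with no low-count filter and 531 in DESeq2, and between 0 (without atxr5/6 replicate 1 or 2) and 941 (without wild-type replicate 1) without single libraries.

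Replicate numbers did not pair the samples: deviations of replicate 1 from the group means correlated between -0.17 and 0.183 across genotypes. A replicate block gave 0, 5, 5, 5, 0 and 0 calls among the 5 genes in the order of comparisons above, and changed no call of a gene in the set, while calls over the whole table for the interaction became 31. Leaving out a library leaves 1 in its genotype, which is then assumed to vary like the others.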

Other observations

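Markers of leaf age and photosynthesis also differed between genotypes, though not all of them along the gcn5 label. SEN1, a gene induced by darkness and senescence, had 9.46 and 9.61 CPM in the atxr5/6 libraries, 16.3 and 10.6 CPM in those of gcn5, 7.98 and 3.77 CPM in those of atxr5/6 gcn5, and 101 and 87.7 CPM in wild type. It was lower than wild type in each mutant by edgeR, with log2 fold changes of -3.31, -2.81 and -4.00 in atxr5/6, gcn5 and atxr5/6 gcn5 (adjusted p = 0.00133, 0.000662 and 0.000186). SAG13, a senescence gene also induced in defence, had 1.296 and 1.70 CPM in the atxr5/6 libraries, 6.94 and 7.53 CPM in those of gcn5, 11.9 and 6.55 CPM in those of atxr5/6 gcn5, and 1.11 and 2.94 CPM in wild type. SAG13 was higher in gcn5 than in wild type by 1.93 (edgeR adjusted p = 0.0104), a call lost without gcn5 replicate 2 (0.0533), and in atxr5/6 gcn5 by 2.29 (edgeR adjusted p = 0.00466).

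Of the 7 senescence genes, 1 was called higher and 1 lower in gcn5, and 1 higher and 3 lower in atxr5/6 gcn5 against wild type, beside 37.5% and 39.1% of all tested genes called in either direction. Those 3 became 1 without atxr5/6 replicate 1 or 2, atxr5/6 gcn5 replicate 2 or wild-type replicate 2, while in gcn5 the 1 lower became 3 without wild-type replicate 1 and the 1 higher became 2 without wild-type replicate 2. Summed over the 7, the level was 43.2 and 44.2 CPM in the atxr5/6 libraries, 56.9 and 47.5 CPM in those of gcn5, 47.0 and 28.5 CPM in those of atxr5/6 gcn5, and 134 and 150 CPM in wild type. Most of the wild-type sum was SEN1, at 101 and 87.7 CPM, against 3.77 to 16.3 CPM in the mutant libraries. The sum is thus weighted to 1 gene and does not describe the 7 alike. Of the 5 leaf markers, 4 were called lower in gcn5 and 5 in atxr5/6 gcn5 against wild type, where 3806 and 3998 of all 19575 tested genes were lower. The median log2 fold changes of the leaf markers were -0.66 and -0.75. The part of these markers in the higher PR and defensin levels was not tested.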
